A study of Mus musculus with 51 samples.

Results

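The genes described here are 10 genes of the endoplasmic reticulum (ER) stress system, measured in mouse alveolar macrophages. They are Hspa5, Hsp90b1, Hyou1, Calr, Pdia4, Dnajc3, Herpud1, Xbp1, Atf4 and Ddit3. They were chosen by name, as the probe sets that carry these symbols in the platform annotation, which gave 27 probe sets for 10 of the 12393 genes on the array. Where a gene had several probe sets, the one with the highest mean log2 signal over all 51 arrays stood for it and is called its main probe set.

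Proteins that enter the ER are folded by chaperones and oxidised by disulfide isomerases, and those that fail to fold are sent back to the cytosol for degradation. When unfolded proteins build up, the sensors IRE1, PERK and ATF6 start the unfolded protein response. IRE1 splices the Xbp1 transcript, PERK slows translation while favouring that of Atf4, and cleaved ATF6 enters the nucleus. Together they raise chaperone and degradation genes and, if the stress goes on, Ddit3, which encodes the pro-apoptotic factor CHOP. Phagocytes that switch on secretion of cytokines draw on the same machinery. An array signal reports the amount of a transcript. It does not report the splicing of Xbp1 or the translation of Atf4.

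Alveolar macrophages are the resident phagocytes of the airspaces. They came from C57Bl/6 mice (WT) or gp91phox-/- mice (KO), which lack the catalytic subunit of the phagocyte NADPH oxidase throughout the body. For WT, 4 arrays stood behind each of 7 groups, namely untreated mice at 0 h and mice given mock, e6 or e7 treatment and sampled after 2 h or 4 h, and 2 arrays behind a group given polystyrene beads for 4 h. For KO, each of these 7 groups had 3 arrays, and beads were not given. The conidia were spores of the mould Aspergillus fumigatus given to living mice, and e6 and e7 are the doses as the labels write them. The labels call the arrays of a group biological replicates, give no age, and do not say how many mice stood behind an array, so the p-values measure the spread between arrays as labelled. For the WT 4 h mock arrays the treatment field names conidia while the titles name mock. Here the titles were used. In such bulk samples fewer cells of a type and less RNA per cell cannot be told apart.

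Cybb, which encodes gp91phox, had log2 signals of 10.59 to 12.12 on the 30 WT arrays and of 6.77 to 9.06 on the 21 KO arrays, without overlap. The mean log2 signal of 14 alveolar macrophage markers lay between 12.29 and 13.03 on every array, against 4.58 to 8.61 for 12 neutrophil markers, 3.54 to 6.56 for 9 T and NK cell markers and 2.76 to 5.57 for 8 B and plasma cell markers. Of the 51 arrays, 10 stood apart by their low end. On these, 3.81% to 7.75% of all signals were under 5, against 9.17% to 13.9% on the other 41. They were all 3 arrays of KO 2 h e7 and of KO 4 h e6, KO 4 h e7 array 1, 2 of the KO 4 h mock arrays, and bead array 1. In WT 4 h e7, arrays 2 and 3 lay apart on the second principal component of all probe sets (93.64 and 144.11, against 38.30 and -2.63 for arrays 1 and 4). Neutrophil markers were highest on WT 4 h mock array 3 (8.61), WT 4 h e6 array 4 (7.80) and WT 4 h e7 array 3 (7.30), while the next WT 4 h array had 6.10. The member calls that rest on these arrays, and the counts of listed genes, are given with and without them.

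The best known control element of this gene set is the ER stress response element, in which a CCAAT box bound by NF-Y stands at a fixed distance from a CCACG box bound by ATF6 or XBP1. Promoter windows from RefSeq (GRCm38.p6, 250 bases before to 50 after each start) were found for 9 of the 10 genes, all but Hyou1. The element, searched as CCAAT, any 9 bases and CCACG on either strand, stood in 4 of these 9, and in 0.119% of all 32851 promoter windows. These were the windows of Hspa5, Hsp90b1, Calr and Dnajc3, which code for folding factors of the ER lumen. The variant element, searched as ATTGG, any 1 base and CCACG on either strand, stood in the window of Herpud1 and in 0.0365% of all windows, and shares the CCACG box with the first. The sequences are shown because they are what these promoters have in common apart from the function of their products. Each is given 5′ to 3′ on the strand of its gene, with the element in capitals.
Hspa5, chr2:34772005-34772063, plus strand: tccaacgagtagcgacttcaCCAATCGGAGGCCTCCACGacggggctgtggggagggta
Hsp90b1, chr10:86705618-86705676, minus strand: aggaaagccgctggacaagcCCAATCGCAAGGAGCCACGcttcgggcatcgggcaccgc
Hsp90b1, chr10:86705513-86705571, minus strand, element reversed: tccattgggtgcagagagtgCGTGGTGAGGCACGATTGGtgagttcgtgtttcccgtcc
Calr, chr8:84847055-84847113, minus strand, element reversed: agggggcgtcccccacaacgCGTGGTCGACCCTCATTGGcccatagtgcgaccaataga
Dnajc3, chr14:118937807-118937865, plus strand: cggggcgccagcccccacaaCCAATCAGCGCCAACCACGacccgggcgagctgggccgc
Herpud1, chr8:94386357-94386407, plus strand: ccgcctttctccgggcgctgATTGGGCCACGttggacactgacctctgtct

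Counted from the annotated start, the element began at position -65 in Hspa5, -105 in Dnajc3, -162 in Calr and -52 in Herpud1, and at -212 and -107 in Hsp90b1. The composite site of ATF4 and CHOP, TGATGNAA on either strand, was found for Herpud1 alone among the 9 genes, and in 3.97% of all windows. It began at position -112 in reverse orientation. The core TGACGTGG, bound by XBP1, was in none of the 9 windows and in 0.676% of all. Such matches describe letters in a window and say nothing of binding.

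Among main probe sets of all genes, folding factors with the ER stress response element had mean log2 signals at percentiles 84.2 (Dnajc3) to 99.6 (Hspa5). Of members whose windows lacked it, Xbp1 was at 99.0, Herpud1 at 90.9, Atf4 at 89.8, Pdia4 at 65.2 and Ddit3 at 51.9. A link between element and signal was not tested. Hspa5 encodes BiP, the ER Hsp70 that holds the stress sensors inactive. The log2 signal of its main probe set (1416064_a_at) lay between 13.36 and 14.03 over all 51 arrays, and its group means between 13.47 (WT 4 h mock) and 13.88 (KO 2 h e6), a range of 0.42 against a within-group SD of 0.14. Its mean log2 signal was at percentile 99.6 among the main probe sets of all genes. Calr encodes calreticulin, a lectin chaperone that binds calcium, and its group means spanned 12.25 (KO 0 h untreated) to 12.53 (KO 2 h e6), with an SD of 0.18 within groups. Dnajc3 encodes p58IPK, a BiP cochaperone that also inhibits PERK, and its group means spanned 10.08 (WT 2 h mock) to 10.67 (KO 2 h mock), with an SD of 0.33. Hsp90b1 encodes GRP94, the ER Hsp90, and its group means spanned 12.26 (WT 2 h e7) to 12.79 (KO 4 h mock), with an SD of 0.15.

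The other members differed in how far their group means ranged. Hyou1 encodes GRP170, which exchanges nucleotide on BiP, and its group means spanned 10.24 (WT 2 h e7) to 11.85 (KO 4 h e6), with an SD of 0.42 within groups. Herpud1, a membrane protein of the degradation complex, spanned 10.49 (WT 4 h e7) to 11.62 (KO 2 h mock), with an SD of 0.41. Atf4, the transcription factor of the PERK branch, spanned 10.38 (KO 2 h mock) to 11.89 (KO 4 h e6), with an SD of 0.27. Ddit3 spanned 6.69 (WT 4 h beads) to 8.09 (KO 2 h e6), with an SD of 0.45. Pdia4, a disulfide isomerase, spanned 8.13 (WT 0 h untreated) to 8.88 (WT 2 h e6), with an SD of 0.38, and Xbp1 12.88 (WT 4 h e7) to 13.30 (WT 2 h mock), with an SD of 0.14. In the order of the 15 groups, no neighbours differed by more than this SD, except 1 pair for Hspa5 and 2 pairs for Atf4.

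**Figure D1:**
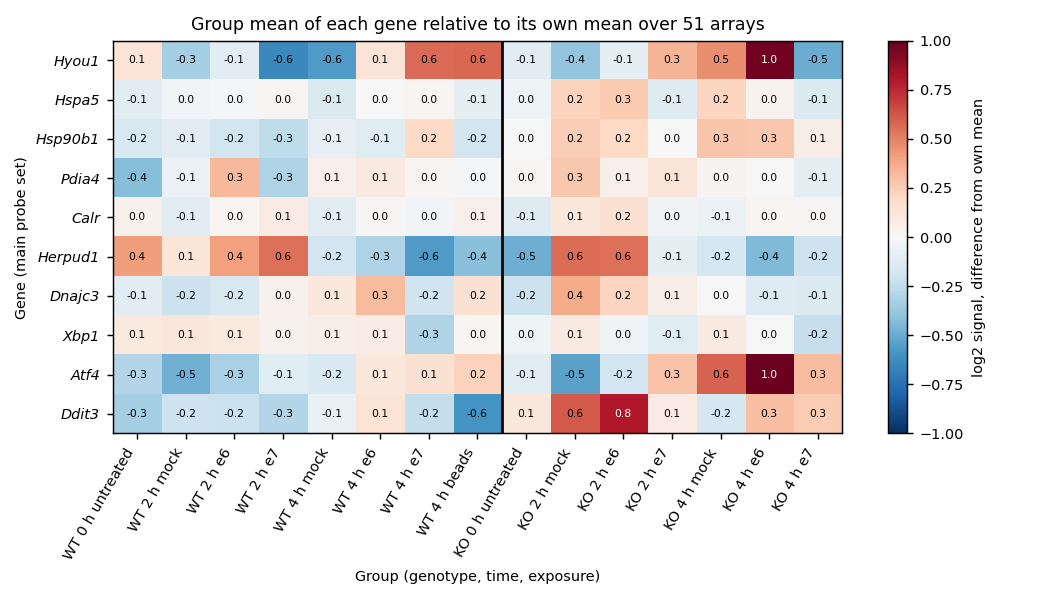
Mean log2 signal of each gene in each of the 15 groups, minus the gene's own mean over the 51 arrays (colour scale in log2 units, WT left of the line and KO right of it). Hspa5, Calr and Xbp1 stayed pale across the groups, while Hyou1 and Atf4 were both highest in KO 4 h e6 and Herpud1 was highest in KO 2 h mock.

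The members did not follow 1 pattern. As a description over the 15 group means, which share arrays and scaling, Pearson's r between Hspa5 and the other members ran from -0.06 (Atf4) to 0.62 (Hsp90b1). Herpud1 and Atf4 ran opposite to each other (r = -0.64), while Hyou1 and Atf4 ran together (r = 0.71). These values hold for the main probe sets alone. Over the 51 arrays that of Atf4 had r = -0.03 with 1448135_at, of nearly the same brightness, and 0.52 with the dim 1439258_at. That of Hyou1 had r = -0.05 and -0.06 with its other probe sets. KO 4 h e6, where Hyou1 and Atf4 were both highest, consists of arrays with few low signals. After removal of the group means, r over the 51 arrays was highest for Hspa5 with Xbp1 (0.56) and for Dnajc3 with Xbp1 (0.49).

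Among 5091 genes with a mean log2 signal of at least 8, the 6 whose group means were most like those of Hspa5 were Creld2 (r = 0.88), Sdf2 (0.79), Hcst (0.78), Smim26 (0.77), Ube2f (0.77) and Manf (0.76). Creld2, Sdf2 and Manf also encode proteins of the ER. For Herpud1 the most alike were Eif1b (0.94), Slc66a2 (0.85), Rest (0.84), Thap11 (0.84), Abtb1 (0.82) and Cuta (0.81). For Ddit3 they were Ctsz (0.90), Igf1 (0.86), Gpr137b-ps (0.86), Clec5a (0.85), Mccc1 (0.85) and Apoe (0.84). Ctsz encodes a lysosomal protease and Apoe a lipid carrier.

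Exposure to e7 conidia for 4 h moved 2 of the 10 members in WT macrophages, and they moved in opposite directions. Hyou1 rose 2.19-fold and Xbp1 fell. The other 8 lay between -0.38 and 0.30 on the log2 scale without passing the test. In this comparison 15.5% of the 22626 probe sets were called, that is, had a Benjamini-Hochberg adjusted p under 0.05 in limma, so a count of 2 in 10 is close to the background. As to direction, 5.84% were called higher and 9.68% lower. The median difference was 0.02 over the members and -0.08 over all genes.

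Hyou1 (1423291_s_at) read 11.41, 11.42, 12.03 and 10.96 log2 in WT 4 h e7 and 10.60, 10.67, 9.92 and 10.12 in WT 4 h mock. All e7 arrays lay above all mock arrays. The difference was 1.13 ± 0.30 (SE, limma adjusted p = 0.00725, 4 against 4 arrays). It was 0.86 without e7 arrays 2 and 3 (limma adjusted p = 0.256) and 0.80 without the 3 arrays high in neutrophil markers (limma adjusted p = 0.124). The call was lost without e7 array 3 alone (limma adjusted p = 0.0594). The mean of the 12 neutrophil markers was 5.41 to 7.30 on the e7 arrays and 4.93 to 8.61 on the mock arrays, and its part in the result was not tested beyond leaving those arrays out.

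The other probe sets of Hyou1 did not move the same way. They are dim, with means of 6.71 and 4.48 over all arrays, and showed -0.77 ± 0.42 (limma adjusted p = 0.238) and -0.79 ± 0.77 (limma adjusted p = 0.574) at WT 4 h e7. The mean over all probe sets of the gene was -0.14. Of the 3 probe sets, the rise was thus seen in the main one alone, whose suffix marks probes that can match more than 1 transcript.

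Xbp1 encodes the transcription factor that IRE1 activates. Its main probe set (1437223_s_at) read 12.76, 12.80, 12.74 and 13.20 log2 in WT 4 h e7 and 13.28, 13.29, 13.29 and 13.10 in WT 4 h mock. On 3 of the e7 arrays the signal was below all mock arrays, and array 4 lay among them. The difference was -0.37 ± 0.11 (limma adjusted p = 0.0189). The bright probe set 1420011_s_at fell by 0.69 ± 0.14 (limma adjusted p = 0.000991), while 1420886_a_at showed -0.26 ± 0.13 (limma adjusted p = 0.182). Against e6 conidia at 4 h, e7 lowered the main probe set by a similar amount (-0.39 ± 0.11, limma adjusted p = 0.0124), the only member of 10 called there, where 16.4% of all probe sets were, 10% as lower. That call ended without e6 array 1, e7 array 2 or e7 array 3, with a highest adjusted p of 0.0639. Without e7 arrays 2 and 3 the differences were -0.26 (limma adjusted p = 0.392) against mock and -0.28 (limma adjusted p = 0.332) against e6. Leaving out e7 array 1, 2 or 3 or mock array 2 or 3 alone ended the call against mock, with a highest adjusted p of 0.0895. Without the 3 arrays high in neutrophil markers the difference against mock was -0.30 (limma adjusted p = 0.132).

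In a fit of only the groups compared, neither Hyou1 (limma adjusted p = 0.272) nor Xbp1 (0.377) passed at WT 4 h e7 against mock. Of the members not called, Hsp90b1 showed 0.28 ± 0.12 at WT 4 h e7 (limma adjusted p = 0.106). Its arrays were at 12.65, 12.78, 13.02 and 12.39 against 12.64, 12.49, 12.39 and 12.21. Leaving out e7 array 4 gave 0.39 (limma adjusted p = 0.0138). Atf4 showed 0.30 ± 0.19 (limma adjusted p = 0.333), with e7 arrays at 11.26, 10.88, 11.25 and 10.84 all above mock arrays at 10.73, 10.75, 10.83 and 10.73. Hyou1 and Atf4 were the 2 members with e7 arrays all above mock arrays, as were 4.11% of all probe sets. Hspa5 showed 0.17 ± 0.11, with a 95% interval of -0.06 to 0.40.

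**Figure D2:**
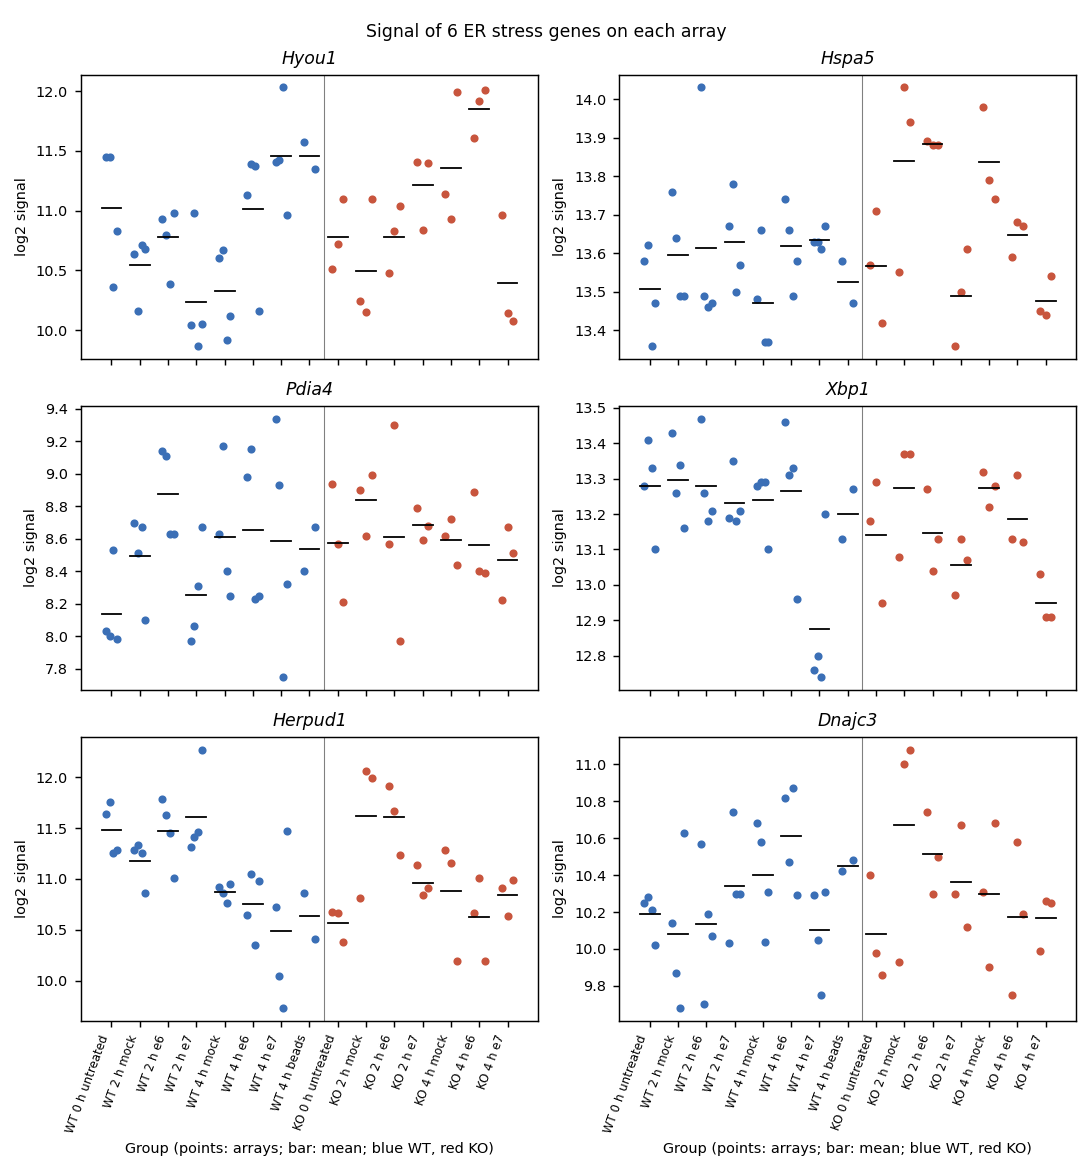
Log2 signal of Hyou1, Hspa5, Pdia4, Xbp1, Herpud1 and Dnajc3 on every array, by group (points are arrays, bars are group means, WT blue and KO red; each panel has its own scale). Hyou1 lay between 10.96 and 12.03 in WT 4 h e7 and between 9.92 and 10.67 in WT 4 h mock, and 3 of the 4 Xbp1 points of WT 4 h e7 lay at 12.74 to 12.80.

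At 2 h, none of the members was called in WT after e7 conidia by limma, where 1.61% of probe sets were, and none had an unadjusted p under 0.05. The members lay between -0.31 (Hyou1) and 0.43 (Herpud1), with a median of -0.02 equal to that of all genes. Herpud1 was at 11.31, 11.41, 11.46 and 12.27 on the e7 arrays and at 11.28, 11.33, 11.25 and 10.86 on the mock arrays, so the groups overlapped. Signals at the 3' end of the actin and Gapdh control transcripts exceeded those at the 5' end by 2.09 to 4.85 log2 units on these e7 arrays and by 0.93 to 1.47 on the mock arrays. In an exact two-sided permutation test this gave p = 0.0286, the smallest p possible with these group sizes (adjusted 0.242 over 17 comparisons). The part of this 3' to 5' difference in the member values was not examined beyond a fit with it as a covariate. For Hyou1 the response at 4 h exceeded that at 2 h by 1.44 ± 0.42 (limma adjusted p = 0.0509), which did not pass the test. Leaving out WT 2 h e7 array 2 or WT 4 h e7 array 4 gave a pass, with a lowest adjusted p of 0.0112. None of the 10 was called in that comparison, where 2.73% of probe sets were, and 2 had an unadjusted p under 0.05.

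The e6 dose called none of the members by limma in either genotype at either time. The e6 and e7 comparisons share their mock arrays. Hyou1 at WT 4 h had e6 signals of 11.13, 11.39, 11.37 and 10.16, of which 3 lay above all mock arrays (0.68 ± 0.30, limma adjusted p = 0.98). It was the only member with an unadjusted p under 0.05 in the 4 e6 comparisons. In KO at 4 h, Calr was at 12.38 to 12.44 with e6, all above its mock arrays, as were 9.94% of probe sets, and Hspa5 was at 13.59 to 13.68, all below them, as were 4.26%. The share of probe sets called was 0% at 2 h in both genotypes, 0.00884% in WT at 4 h and 0.0796% in KO at 4 h. Against e6 at 2 h in WT, e7 called none (0% of probe sets), and Pdia4 was the 1 member with an unadjusted p under 0.05 (-0.62 ± 0.27, limma adjusted p = 0.671).

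Beads and conidia gave Hyou1 nearly the same mean in WT at 4 h. The bead arrays were at 11.57 and 11.35, with a mean of 11.46, and the e7 arrays had a mean of 11.45. Against mock the bead difference was 1.13 ± 0.36 (limma adjusted p = 0.0992), and e7 minus beads had a 95% interval of -0.73 to 0.73. Hyou1 and Atf4 (11.30 and 10.98 with beads) had bead arrays all above mock arrays, as had 15.6% of probe sets. Against beads, the e7 arrays of Hspa5 were all higher, as for 4.94% of probe sets, and those of Dnajc3 all lower, as for 12.8%. Beads called none of the members against mock (1.14% of probe sets called, 1 member with an unadjusted p under 0.05), and e7 against beads called none (3.59%, 2 members). Ddit3 had its lowest group mean with beads, at 6.84 and 6.53. Bead array 1 is among the 10 arrays with few low signals, and with the share of signals under 5 as a covariate the Hyou1 difference was 0.79 (limma adjusted p = 0.513). The 3' to 5' difference of the controls was 4.11 and 5.32 log2 units on the bead arrays against 1.19 to 2.34 on the mock arrays. With it as a covariate the Hyou1 difference was 0.96 (limma adjusted p = 0.469).

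In KO macrophages the e7 conidia called none of the chaperones by limma. At 2 h, 1 of the 10 members was called, a rise of Atf4, where 8.65% of probe sets were called, 6.11% as higher. At 4 h none was called, where 0.00442% of probe sets were, and 3 members had an unadjusted p under 0.05 in limma. The members below 0 numbered 8 of 10 at either time, and the share of all probe sets below 0 is not given here. Their median was -0.23 at 2 h against 0.23 for all genes, and -0.17 at 4 h against -0.05. Signals under 5 made up 4.90% to 7.69% on the KO 2 h e7 arrays and 11.16% to 13.62% on their mock arrays. After quantile normalization the median of all genes at 2 h was 0.02, which moves the reference by more than 0.1. The members' own median after it is not given, so the gap at 2 h is not read as a shift of the members.

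Hspa5 was at 13.36, 13.50 and 13.61 on the KO 2 h e7 arrays and at 13.55, 14.03 and 13.94 on their mock arrays, with overlap. The difference was -0.35 ± 0.13 (limma adjusted p = 0.0829), and without mock array 1 it was called (-0.49, limma adjusted p = 0.0298). At 4 h Hspa5 was at 13.45, 13.44 and 13.54 on the e7 arrays and at 13.98, 13.79 and 13.74 on the mock arrays, without overlap (-0.36 ± 0.13, limma adjusted p = 0.512). At 4 h Hsp90b1 (12.53 to 12.61 against 12.69 to 12.88) and Xbp1 (12.91 to 13.03 against 13.22 to 13.32) also had e7 arrays all below mock arrays. The 3 members so placed compare with 9.05% of all probe sets. The 3' to 5' difference of the controls was 0.93 to 1.18 log2 units on the KO 4 h e7 arrays and 1.41 to 2.61 on their mock arrays. Its part was not examined beyond a fit with it as a covariate.

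Atf4 (1438992_x_at) was at 11.15, 11.06 and 11.39 on the KO 2 h e7 arrays and at 10.17, 10.48 and 10.48 on the mock arrays, without overlap, and 26.6% of all probe sets likewise had all e7 arrays above. Hsp90b1 had them all below (-0.25 ± 0.14, limma adjusted p = 0.234), as had 11.4%. The Atf4 difference was 0.82 ± 0.22, 1.77-fold (limma adjusted p = 0.0189). All 3 e7 arrays, and none of the mock arrays, belong to the 10 with few low signals, so exposure and this split cannot be told apart here. With the share of signals under 5 as a covariate the difference was 0.48 (limma adjusted p = 0.571). The call also ended without e7 array 1, e7 array 3 or mock array 1, with a highest adjusted p of 0.0901, and in a fit of only the groups compared (limma adjusted p = 0.06). The T and NK cell markers had means of 5.77 to 5.96 on these e7 arrays and of 4.09 to 5.55 on the mock arrays, and their part was not tested. Apart from Cd2 (median signal 4400) the markers of this list were dim, with median signals of 3.58 to 52.1 over the arrays. The 3' to 5' difference of the controls was at least 1.45 on the e7 arrays and at most 1.22 on the mock arrays, and with it as a covariate Atf4 showed 0.74 (limma adjusted p = 0.0384). The probe set 1448135_at, of nearly the same brightness for this gene, showed -0.12 ± 0.22 (limma adjusted p = 0.767).

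**Figure D3:**
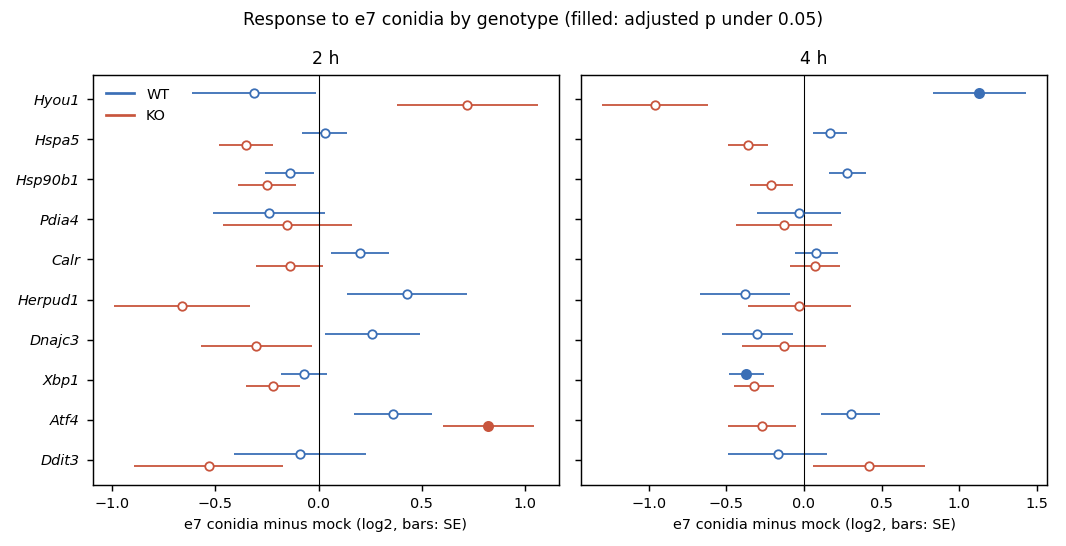
Log2 difference between e7 conidia and mock for each gene at 2 h (left) and 4 h (right), in WT (blue) and KO (red), with the SE from limma as bars. Filled points had an adjusted p under 0.05. They are Atf4 in KO at 2 h (0.82), and Hyou1 (1.13) and Xbp1 (-0.37) in WT at 4 h.

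The responses of the genotypes to e7 conidia were compared directly. At 4 h the response of Hyou1 was lower in KO than in WT by 2.09 ± 0.45 on the log2 scale (limma adjusted p = 0.0451), the 1 member called where 0.19% of probe sets were, 0.0928% as lower. The KO e7 arrays were at 10.96, 10.14 and 10.08 and the KO mock arrays at 11.14, 10.93 and 11.99, a difference of -0.96 ± 0.34 (limma adjusted p = 0.491), with overlap. Without WT e7 arrays 2 and 3 the genotype difference was -1.82 (limma adjusted p = 0.324), and without the 3 arrays high in neutrophil markers it was -1.77 (limma adjusted p = 0.126). It was -1.96 with the share of signals under 5 as a covariate (limma adjusted p = 0.0743), and a fit of only the groups compared gave an adjusted p of 0.487. Leaving out single arrays gave -2.38 to -1.78, and the call was lost for 10 of the 14, with a highest adjusted p of 0.133. These 10 were WT e7 arrays 2 and 3, all 4 WT mock arrays, KO e7 arrays 2 and 3, and KO mock arrays 1 and 3. The dim probe sets of Hyou1 showed 1.01 ± 0.64 and -0.11 ± 1.18.

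For Hspa5 the same difference was -0.52 ± 0.17 (limma adjusted p = 0.113) at 4 h and -0.38 ± 0.17 (limma adjusted p = 0.26) at 2 h. For Hsp90b1 at 4 h it was -0.49 ± 0.18 (limma adjusted p = 0.151). At 2 h none of the members was called, where 1.45% of probe sets were, and 3 had an unadjusted p under 0.05. They were Hspa5, Herpud1 (-1.09 ± 0.44, limma adjusted p = 0.199) and Hyou1, which had the opposite sign (1.03 ± 0.45, limma adjusted p = 0.245), also opposite to its own value at 4 h.

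As a mean over the 7 conditions that both genotypes had, 3 of the 10 members were higher in KO than in WT and none was lower. They were Hsp90b1, Atf4 and Ddit3. Of all probe sets 33.4% were called in this comparison, 21.9% as higher in KO, so 3 in 10 lies near the background. The median was 0.10 over the members and 0.09 over all genes.

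Hsp90b1 differed by 0.25 ± 0.05 (limma adjusted p = 0.000104) and was higher in KO in 6 of 7 conditions, as were 22.3% of probe sets in 6 or more. Untreated KO arrays were at 12.58, 12.70 and 12.28 against 12.44, 12.39, 12.27 and 12.30 in WT. Mock KO arrays at 2 h were at 12.73, 12.76 and 12.79, and the WT arrays at 12.44, 12.40, 12.26 and 12.53. WT 4 h e7 was the exception, with a mean of 12.71 against 12.58 in KO. The second probe set of the gene, with a mean of 10.98, showed -0.13 ± 0.11 (limma adjusted p = 0.368), and the mean of both 0.06 (limma adjusted p = 0.469).

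Ddit3 differed by 0.46 ± 0.13 (limma adjusted p = 0.0053). Its KO 2 h e6 arrays were at 8.23, 7.93 and 8.12 and the WT ones at 6.93, 7.79, 6.83 and 6.74. At 4 h with mock the KO mean of 7.12 was below the WT mean of 7.22. Ddit3 has 1 probe set here, with signals of 74.2 to 332. Its mean log2 signal was at percentile 51.9 among the main probe sets of all genes.

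The main probe set of Atf4 differed by 0.35 ± 0.08 (limma adjusted p = 0.000746), and its difference followed the conditions unevenly. It was -0.05 at 2 h with mock, 0.12 at 2 h with e6 and 0.18 in untreated mice, but 0.74 at 4 h with mock and 0.87 at 4 h with e6. At 4 h with e6 the KO arrays were at 11.66, 12.09 and 11.92 and the WT arrays at 11.18, 10.82, 10.86 and 11.21. These values hold for the main probe set of Atf4 alone, which had r = -0.03 over the 51 arrays with 1448135_at, of nearly the same brightness. The genotype difference of 1448135_at is not given here. On the 10 arrays with few low signals Atf4 lay between 11.05 and 12.09, and on the other 41 between 10.17 and 11.50. Over the 3 conditions in which no array belongs to the 10, that is untreated, 2 h mock and 2 h e6, Atf4 differed by 0.08 (limma adjusted p = 0.776). Over the same 3 conditions Hsp90b1 differed by 0.30 (limma adjusted p = 0.00522) and Ddit3 by 0.77 (limma adjusted p = 0.00771). With the share of signals under 5 as a covariate none of the 3 passed over the 7 conditions, where 6.25% of all probe sets did. The differences were 0.24 for Hsp90b1 (limma adjusted p = 0.0744), 0.34 for Ddit3 (limma adjusted p = 0.442) and 0.17 for Atf4 (limma adjusted p = 0.538). T and NK cell markers, 9 of 10 of which were measured, had means of 4.09 to 6.56 on KO arrays and 3.54 to 5.28 on WT arrays, and their part was not tested. Apart from Cd2 they were dim. The highest mean of each genotype was on an array with few low signals, KO 4 h e6 array 3 (6.56) and bead array 1 (5.28).

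**Figure D4:**
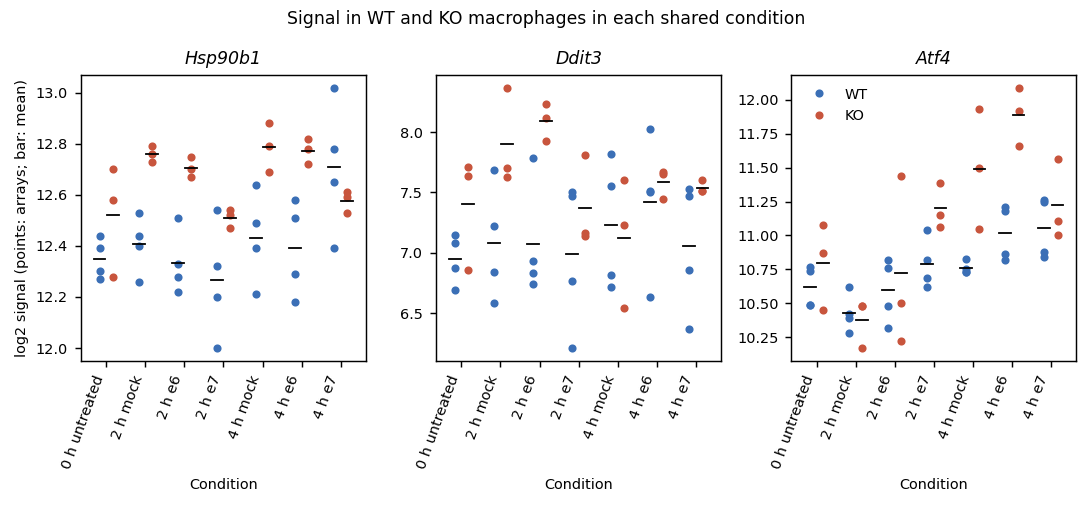
Log2 signal of Hsp90b1, Ddit3 and Atf4 on each array in the 7 conditions both genotypes had (points are arrays, bars are means, WT blue and KO red; each panel has its own scale). Hsp90b1 was higher in KO except after 4 h with e7 conidia, and the gap of Atf4 was 0.74 at 4 h with mock and 0.87 at 4 h with e6 conidia.

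**Figure D5:**
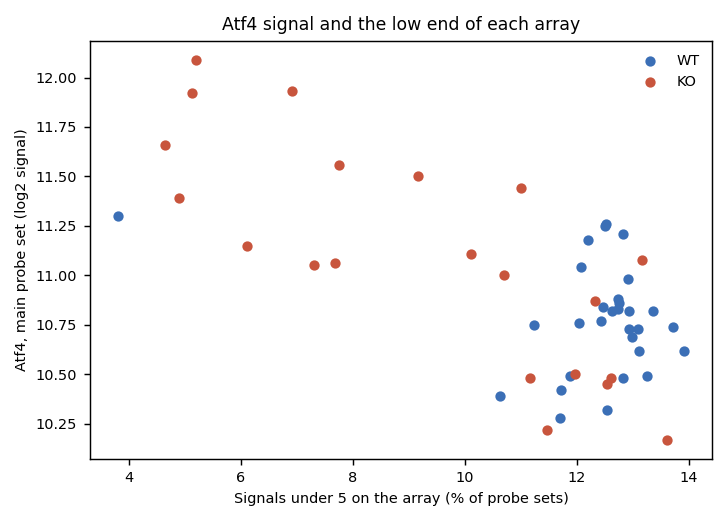
Log2 signal of Atf4 on each of the 51 arrays against the percentage of probe sets on that array with a signal under 5. The 10 arrays under 8% are 9 of KO and 1 of WT, and their Atf4 signals lay between 11.05 and 12.09.

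The second probe set of Hspa5, 1427464_s_at with a mean of 11.45, was higher in KO by 0.44 ± 0.09 (limma adjusted p = 0.000117), while the main one showed 0.09 ± 0.05 (limma adjusted p = 0.109). In untreated mice none of the members was called between the genotypes, where 1.99% of probe sets were, and 1 had an unadjusted p under 0.05. That was Herpud1, at 10.67, 10.66 and 10.38 in KO and at 11.64, 11.76, 11.25 and 11.28 in WT. The KO arrays were all below the WT arrays, as were those of 8.33% of probe sets, and the difference was -0.91 ± 0.31 (limma adjusted p = 0.125).

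Mock instillation against untreated called none of the members by limma in either genotype at 2 h or 4 h. The shares of probe sets called were 0.00442% at 2 h in both genotypes, 0.0133% in WT at 4 h and 1.2% in KO at 4 h. Unadjusted p-values under 0.05 were held by 0 and 2 members in WT at 2 h and 4 h, and by 3 and 2 members in KO. The largest differences were those of Hyou1 in WT (-0.47 ± 0.30 at 2 h and -0.70 ± 0.30 at 4 h), Herpud1 in KO at 2 h and Atf4 in KO at 4 h. For Herpud1 in KO the 2 h mock arrays were at 10.81, 12.06 and 11.99, all above the untreated arrays (1.05 ± 0.33, limma adjusted p = 0.387), as were those of Hsp90b1 and of 9.95% of probe sets. In WT the 4 h mock arrays of Herpud1 were at 10.92, 10.86, 10.76 and 10.95, all below the untreated arrays (-0.61 ± 0.29, limma adjusted p = 0.602), as for 3.02% of probe sets. Calr at WT 2 h mock was at 12.04 to 12.34 against 12.36 to 12.47 untreated, a placing shared by 3.77%. Hspa5 at KO 4 h mock was above all untreated arrays, as were 16.3%. For KO at 4 h Atf4 showed 0.70 ± 0.22 (limma adjusted p = 0.103), with mock arrays at 11.05, 11.50 and 11.93 of which 2 have few low signals.

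Around the members, 104 of 118 listed genes of the same system were measured, in lists of sensors and regulators, folding and quality control, translocation, ER-associated degradation and the integrated stress response. At WT 2 h e7, 4 of the 104 rose and 0 fell, where 1.61% of all probe sets were called. They were Atf3, a stress-induced transcription factor (1.39 ± 0.26, limma adjusted p = 0.00479), the ER oxidase Ero1b (0.86 ± 0.20, limma adjusted p = 0.0182), and the degradation factors Derl2 (0.62 ± 0.14) and Edem1 (0.50 ± 0.13). Atf3 ran from 9.57 to 10.02 on the e7 arrays and from 8.26 to 8.68 on the mock arrays.

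At WT 4 h e7, 11 of the 104 rose and 15 fell, where 15.5% of all probe sets were called, 5.84% as higher and 9.68% as lower. The median was -0.02 against -0.08 for all genes. Without e7 arrays 2 and 3, 2 rose and 0 fell (0.902% of probe sets called), and without the 3 arrays high in neutrophil markers 3 rose and 3 fell (5.15%). Slc7a11, a cystine transporter and ATF4 target, rose by 1.66 ± 0.54 and Atf3 by 1.41 ± 0.26. Nfyb, a subunit of NF-Y, rose by 1.02 ± 0.26 and Ero1b by 0.85 ± 0.20. The largest falls were those of Ganab, the glucosidase that trims glycoproteins for calreticulin (-1.32 ± 0.38), the serine metabolism enzyme Shmt2 (-1.26 ± 0.21), Edem2 (-1.20 ± 0.29) and the eIF2 alpha kinase Eif2ak4 (-1.15 ± 0.21). The integrated stress response list, which names partners and targets of ATF4 and CHOP, had 4 members higher and 7 lower of 32, and 1 higher and 0 lower without e7 arrays 2 and 3. Ganab ran from 5.20 to 8.66 on the e7 arrays and from 8.37 to 8.95 on the mock arrays, and without e7 arrays 2 and 3 its difference was -0.13 (limma adjusted p = 0.907). Of the 8 genes named here only Atf3 passed without those arrays (1.77 ± 0.31, limma adjusted p = 0.0022), and it passed without the arrays high in neutrophil markers as well (1.91 ± 0.26, limma adjusted p = 1.84e-05).

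At KO 2 h e7, 7 of the 104 rose and 6 fell, where 8.65% of all probe sets were called, 6.11% as higher. The amino acid transporter Slc7a5 rose by 2.32 ± 0.53, from mock arrays spread over 4.30 to 7.64 to e7 arrays at 8.44 to 8.80. Cebpb, a transcription factor that pairs with CHOP, rose by 0.97 ± 0.20, and the degradation genes Nploc4 and Syvn1 by 0.94 ± 0.27 and 0.68 ± 0.21. Nupr1 (-0.93 ± 0.28), the proline isomerase Fkbp2 (-0.81 ± 0.22) and the translocon subunit Ssr4 (-0.72 ± 0.19) fell. Derl3 was also called lower, but its signal was under 50 on all 3 e7 arrays, and with signals under 50 set to 50 it showed -0.72 ± 0.29 (limma adjusted p = 0.0996). Here too the 3 e7 arrays are those with few low signals, and with the share of signals under 5 as a covariate 0 of the 104 were called by limma, where 0.0265% of probe sets were. At KO 4 h e7 and in the 4 e6 comparisons, 0 of the 104 were called by limma.

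Between the genotypes, as a mean over the 7 conditions, 24 of the 104 were higher in KO and 16 lower, where 33.4% of all probe sets were called, 21.9% as higher. The median was 0.06 against 0.09 for all genes. With the share of signals under 5 as a covariate 3 were higher and 1 lower, where 6.25% of probe sets were called. Fkbp11, a proline isomerase of the ER, had signals of 50 or more on 21 of 21 KO arrays and on 1 of 30 WT arrays, so its WT level is not measured well. With signals under 50 set to 50 it was higher in KO by 1.65 ± 0.06 (limma adjusted p = 4.84e-22). That floor makes nearly all WT values equal, so this SE and p do not measure the spread between arrays. Without it the SE was 0.33. In untreated mice the log2 signals of Fkbp11 ran from 6.06 to 7.21 in KO and from 0.70 to 5.19 in WT. Slc7a11 was higher by 1.29 ± 0.22, and the ATF4 and CHOP targets Trib3 and Chac1 by 0.65 ± 0.12 and 0.53 ± 0.15. Slc7a11 reached a signal of 50 on 16 of 30 WT arrays and Chac1 on 17 of 30. With signals under 50 set to 50 they were higher by 1.01 ± 0.20 and 0.31 ± 0.10 (limma adjusted p = 0.000153 and 0.0209). Lower in KO were Slc7a5 (-0.86 ± 0.19), Nfyb (-0.34 ± 0.11), Shmt2 (-0.33 ± 0.09) and Sesn2 (-0.30 ± 0.12). Of the genes named in this paragraph, only Fkbp11 (limma adjusted p = 5.36e-07) and Trib3 (0.72, limma adjusted p = 0.0299) passed with that covariate. Slc7a11 showed 1.16 (limma adjusted p = 0.0567) and Chac1 0.15 (limma adjusted p = 0.818). The genes named as lower had limma adjusted p-values of 0.126 to 0.274.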

How the data were processed

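The authors deposited linear intensity values for Affymetrix mouse arrays, with 1 signal for each probe set on an array. Per the labels' protocols, RNA was taken from fresh macrophages with RNeasy columns and labelled with biotin in a two-cycle procedure from 100 ng. The submitters' processing notes name GCOS and RMA without version or role. The mean signal of each array after trimming 2% at each end was 499.9, and the arrays did not share 1 distribution. The genome build of the probe sets is not given in the sources used here. The number of arrays sets the precision.

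Of 22690 probe sets, 64 controls were left out. Of the 22626 tested, 20380 have 1 gene symbol in the platform table, 691 several and 1555 none. Values were taken to log2 with no filter or pseudocount and fitted with limma 3.58.1 in R 4.3.3, with 1 mean per group over all 51 arrays. The 21 comparisons were two-sided, and p-values were adjusted by Benjamini-Hochberg over all probe sets within each. Errors after ± are limma's SE. The spread is pooled over groups, so it understates the error of a group that varies more. The fit was tested on simulated data.

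The members, the lists and the tests were chosen with earlier results of these data known. Other genes of the system were named by rule, at most the 4 called with the largest difference in each direction, and for Hspa5, Herpud1 and Ddit3 the 6 genes with the most similar group means. Alternatives were quantile normalization, signals under 50 set to 50, dim probe sets left out (mean signal under 100) and array weights. Further alternatives were the 3' to 5' difference as covariate, the mean of all probe sets of a gene and a replicate block. The last were a fit of only the groups compared, and each array left out. Those on the low end of the arrays, on WT 4 h e7 arrays 2 and 3, on arrays with neutrophil markers and on 3 conditions alone, and all alternatives for the listed genes, were added after seeing the data.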

Additional observations from a re-analysis of the deposited data

Results flagged for a closer look

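In groups of 4 arrays, 10 of 70 tested sets of member signals held 1 array far from the other 3. The nominal rate is about 1 in 20 for independent sets. The members share the same arrays, so the sets are not independent, and the rate over all probe sets was not computed. For Hyou1 the arrays apart were WT 2 h e7 array 2 (log2 signal 10.98) and WT 2 h mock array 2 (10.16). Hspa5 had its highest WT signal on WT 2 h e6 array 1 (14.03). Pdia4 was apart on untreated WT array 3 (8.53) and Calr on WT 2 h mock array 2 (12.04). Herpud1 was apart on WT 2 h e7 array 4 (12.27) and on WT 2 h mock array 4 (10.86). Xbp1 was apart on WT 2 h e7 array 2 (13.35), on WT 4 h e7 array 4 (13.20) and on WT 4 h mock array 4 (13.10). Without WT 4 h e7 array 4 its fall after e7 conidia at 4 h was larger, at -0.47.

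In a test of the difference itself, the response of Hyou1 (main probe set) to e7 conidia at 4 h differed between the genotypes. KO minus WT was -2.09 (limma adjusted p = 0.0451). The call was lost for 10 of the 14 arrays when each was left out, with a highest limma adjusted p of 0.133. It also ended in a fit of only the groups compared. The Hyou1 signals of mock arrays were 11.14, 10.93 and 11.99 in KO and 10.60, 10.67, 9.92 and 10.12 in WT.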

How the results depend on the processing

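Among the alternatives other than leaving out 1 array, 329 of the member values kept direction and side of the threshold, 21 newly passed, 23 no longer passed and 2 reversed. The reversals came with the mean of all probe sets of a gene, for Hyou1 at WT 4 h e7 against mock (-0.14) and for Pdia4 at WT 2 h e7 against e6 (0.21). The counts of members called changed as follows. At WT 4 h e7 against mock, 2 became 0 with the mean of all probe sets and with only the groups compared. The 2 also became 0 without e7 arrays 2 and 3, and without the 3 arrays high in neutrophil markers. With these arrays left out, 0.902% and 5.15% of all probe sets were called, against 15.5% in the main fit. At KO 2 h e7 against mock, 1 became 2 with signals under 50 set to 50 and 3 with array weights. It became 0 with the mean of all probe sets, only the groups compared or the share of signals under 5 as covariate. The share of all probe sets called was 8.65% in the main fit, 12.0% with the floor of 50 and 0.0265% with that covariate. Array weights gave 1 in place of 0 for KO 2 h mock against untreated, for KO minus WT untreated and for KO minus WT in the 2 h response. Beads against mock went from 0 to 1 with the floor of 50 and with dim probe sets left out. At WT 4 h e7 against e6, 1 became 2 with the floor of 50, dim probe sets left out or the 3' to 5' covariate, and 0 with only the groups compared or without e7 arrays 2 and 3. For e7 against beads 0 became 1 with quantile normalization, the floor or the 3' to 5' covariate. For the WT response at 4 h minus 2 h, 0 became 1 with these and with dim probe sets left out. KO minus WT over 7 conditions went from 3 to 0 with the share of signals under 5 as covariate. All probe sets called there went from 33.4% to 6.25%. KO minus WT in the 4 h response went from 1 to 0 with that covariate, the 3' to 5' covariate, the mean of all probe sets, only the groups compared, without e7 arrays 2 and 3, and without the 3 arrays high in neutrophil markers. For the other settings the share of all probe sets called is not given here. There a change in the members cannot be told from a change over all probe sets. The cause of the changes in the counts was not tested.

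With the replicate number as a block, e7 against beads and the WT response at 4 h minus 2 h had 1 member called in place of 0, and WT 4 h e7 against e6 had 2 in place of 1. Hyou1 at WT 4 h e7 had 1.13 under the block (limma adjusted p = 0.00718). In 0 of 17 comparisons did every same-numbered pair correlate above 0.1, so the main fit was left unpaired. The mean r of same-numbered pairs ran from -0.17 to 0.31, and this rule cannot exclude a link between some of the arrays. With 1 array left out, the members called ranged from 0 to 3 at WT 4 h e7 against mock, 0 to 1 at KO 2 h e7 against mock, 0 to 2 for e7 against beads, 0 to 2 at WT 4 h e7 against e6, 0 to 3 for the WT response at 4 h minus 2 h, and 0 to 2 for KO minus WT in the 4 h response. For the fits with 1 array left out, the share of all probe sets called is not given here. Quantile normalization moved the median of all genes at KO 2 h e7 from 0.23 to 0.02.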
